A study of Mus musculus with 6 samples.

Results

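The genes described here are those of excitation-contraction coupling and of the calcium store of skeletal muscle, namely *Ryr1*, *Cacna1s*, *Stac3*, *Atp2a1*, *Atp2a2*, *Casq1*, *Casq2*, *Trdn*, *Jph1*, and *Bin1*. They were chosen by name for their known function, with earlier results of these data known. All 10 were found among the 55421 genes of the count table. RNA-seq had been performed on C2C12 cells, a mouse myoblast line that fuses into multinucleated myotubes when serum is lowered. In the normal group (CUG5) the cells had been stably transfected with a *GFP* plasmid carrying 5 CTG repeats, and in the DM1 group (CUG200) with the same kind of plasmid carrying 200 CTG repeats. The repeats lie behind the coding part of *GFP*, so the model for myotonic dystrophy type 1 (DM1) expresses the expanded CUG RNA outside its own gene. Cells of both groups had been selected with G418 until stable and were taken at differentiation day 4, and each group had 3 libraries. Whether a line descends from a single cell, and whether the libraries of a group came from separate transfections, is not given in the sources used here, so p-values measure the spread between these libraries.

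An action potential that enters the T-tubules of a muscle fiber moves the voltage sensor CaV1.1, encoded by *Cacna1s*, and the sensor opens the ryanodine receptor RYR1 in the facing membrane of the sarcoplasmic reticulum. Calcium that leaves the store starts contraction, and the SERCA pumps return it to the store, where calsequestrin binds it. These proteins meet at the triad, a junction that is built while myotubes mature, and most of their genes are switched on during myoblast differentiation by myogenic factors such as MyoD, myogenin, and MEF2. In DM1 muscle, several of these transcripts, among them those of *CACNA1S*, *ATP2A1*, and *BIN1*, are known for altered splicing.

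Since E-boxes (CANNTG, the letters bound by MyoD and myogenin) and MEF2 sites are landmarks of muscle promoters, the 250 bases before the RefSeq start were read for the 5 of the 10 genes with an entry in the promoter table used here (GRCm38.p6). The stretches around the matches are printed here because these genes are compared side by side in the results that follow. Capitals mark CAGCTG, the E-box preferred by myogenic factors, the M-CAT letters CATTCC, which are read here on the reverse strand, and the MEF2 site. In *Cacna1s*, the stretch at chr1:136052653-136052728 (plus strand) has the M-CAT match at 130 to 125 bases and CAGCTG at 123 to 118 bases before the start. In *Casq1*, CAGCTG is found at 195 to 190 bases in the stretch chr1:172220050-172220125 (minus strand). In *Atp2a1*, it is found at 55 to 50 bases in chr7:126463088-126463163 (minus strand), a stretch whose 3′ end runs into the first exon of the longer GENCODE model. In *Casq2*, the MEF2 match is found at 69 to 60 bases in chr3:102086311-102086390 (plus strand).
Cacna1s: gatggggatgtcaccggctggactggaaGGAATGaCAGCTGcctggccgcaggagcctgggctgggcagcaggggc
Casq1: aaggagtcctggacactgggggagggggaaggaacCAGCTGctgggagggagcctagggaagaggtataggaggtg
Atp2a1: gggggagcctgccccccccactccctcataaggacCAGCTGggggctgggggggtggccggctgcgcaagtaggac
Casq2: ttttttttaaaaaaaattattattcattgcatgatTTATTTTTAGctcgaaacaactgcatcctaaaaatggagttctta

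CAGCTG was found in 3 of the 5 promoters and in 4271 of all 32851 promoters of the same length. Both strands were searched, and each CAGCTG is also counted as a CANNTG, which was found in 4 of the 5 promoters and in 66.2% of all. CATTCC was found in 1 of the 5 promoters and in 12.6% of all, and the MEF2 site in 1 of the 5 and in 2.92% of all. The CArG box, the site of serum response factor, was in none of the 5 promoters and in 1.47% of all. The *Ryr1* promoter held none of these letters in this window. A match is a description of the letters and shows no binding.

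The counts summed to between 61707889 and 80957325 in the normal libraries and between 63529148 and 79094991 in the DM1 libraries. A count stands for 75 aligned bases, and 3 counts are worth between 0.0371 and 0.0486 CPM (counts scaled to the library total). The read length is not stated, but genes with exactly 4 counts were more frequent (945 to 1072 per library) than genes with 3 (517 to 601) or 5 (574 to 669), so a fragment may be worth more than 1 count. These depths cover counting error only. The 10 genes were counted well above this floor, with between 1309 and 61028 counts in every library, and all 10 passed the filter on low counts. Levels are given as CPM scaled by TMM, and levels of different genes are compared only as TPM, which are scaled by transcript length. Of the 19005 genes tested, 1660 were lower and 1356 higher in the DM1 group by edgeR's quasi-likelihood test at an adjusted p-value under 0.05, so 55.0% of the calls were lower, against 65.7% (816 lower and 427 higher) by limma on log2(TPM + 1). Higher calls outnumbered lower ones without normal library 3 (485 lower and 543 higher) and without DM1 library 2 (568 lower and 589 higher).

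Transcripts of the coupling and store genes were lower in DM1 myoblasts. Of the 10 genes, 9 fell by edgeR's quasi-likelihood test after adjustment by Benjamini-Hochberg, and 8.73% of all genes tested did so. None was called higher, while 7.13% of all genes were, and none was higher at an unadjusted p-value under 0.05 by edgeR or was called higher by DESeq2 or limma. The median log2 fold change of the 10 genes was -0.60, and that of all genes tested was 0.02. In the same 9 genes, every DM1 library lay below every normal library, a pattern found in 19.3% of all genes tested. None of the 10 passed the cutoffs of an adjusted p-value under 0.05 and a fold change of more than 1 on the log2 scale, which 2.18% of all genes passed. *Atp2a2* stood next to the cutoff at -0.997. Among other alternatives, it passed by limma on log2(TPM + 1) and without normal library 2 or DM1 library 3. Together the 10 genes took 1516, 1309, and 1363 TPM in the normal libraries and 755, 825, and 1001 TPM in the DM1 libraries. In bulk RNA, fewer myotubes and less of these transcripts per myotube cannot be told apart.

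The myotube marker list moved with the coupling genes. Of its 16 genes, 12 fell and none was called higher by edgeR (1 was higher at an unadjusted p-value under 0.05), while 8.73% of all genes fell and 7.13% rose, and their summed level was between 13140 and 15700 TPM in the normal libraries and between 8457 and 10210 TPM in the DM1 libraries. *Ckm*, the muscle creatine kinase, had a log2 fold change of -0.84, *Acta1*, the skeletal muscle actin, of -0.91, *Actn2*, the Z-disc protein alpha-actinin, of -1.22, *Myh3*, the embryonic myosin heavy chain, of -1.32, and *Myog*, encoding myogenin, of -0.65. Of 12 markers of undifferentiated myoblasts, *Hes1* and *Heyl* fell, both targets of Notch signaling (16.7%, against 8.73% of all genes), and *Id2* rose (8.33%, near the 7.13% of all genes). The summed level of that list was between 436 and 475 TPM in the normal and between 389 and 437 TPM in the DM1 libraries. Of 9 fibroblast markers, 7 were tested and 5 rose, against 7.13% of all genes (*Col1a1*, *Dpt*, *Lum*, *Dcn*, and *Col1a2*), with a sum between 1732 and 2032 TPM in the normal and between 2026 and 2447 TPM in the DM1 libraries, while *Tcf21* was at 0 in all libraries. Of 6 smooth muscle markers, 5 were tested and *Tagln* and *Cnn1* rose, against 7.13% of all genes, and their sum was between 2454 and 2959 TPM in the normal and between 2777 and 3308 TPM in the DM1 libraries. Of 6 adipocyte markers, 2 were tested and neither was called, also at an unadjusted p-value under 0.05 by edgeR, and *Adipoq*, *Fabp4*, and *Lep* were at 0. The part of these markers in the fall of the coupling genes was not tested.

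**Figure D1:**
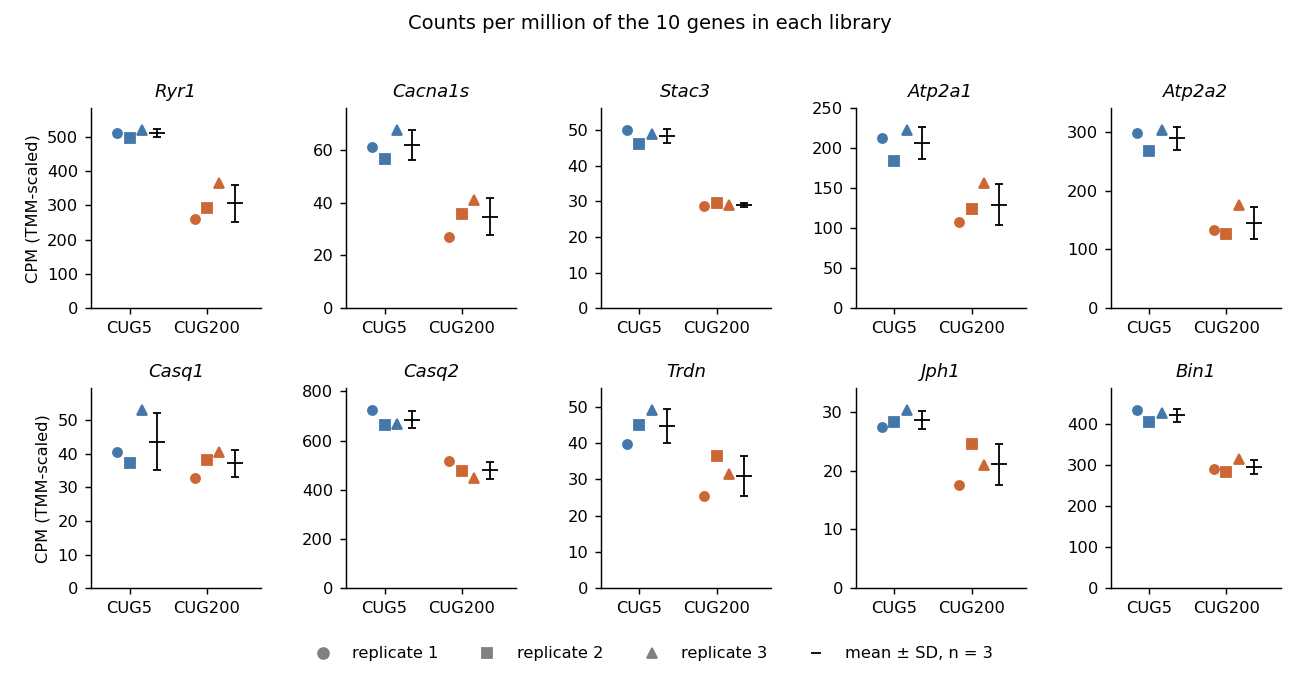
Library-scaled counts (CPM, TMM-scaled, vertical axes from 0) of the 10 genes in each library, with CUG5 in blue, CUG200 in orange, the replicate number as the symbol and mean ± SD (n = 3) in black. Every CUG200 point lies below every CUG5 point for 9 genes, and the groups overlap for *Casq1*.

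*Cacna1s* (ENSMUSG00000026407, chr1:136052750-136119822, plus strand, GRCm38) encodes the pore and the voltage-sensing part of CaV1.1. Its level was 61.1, 56.6, and 67.7 CPM in the normal libraries 1 to 3 and 27.1, 35.8, and 41.1 CPM in the DM1 libraries 1 to 3. The highest DM1 library stood below the lowest normal library, and the means were 61.8 ± 5.60 and 34.7 ± 7.05 CPM (SD, n = 3 each). The log2 fold change was -0.83 ± 0.149 (SE), with an adjusted p-value of 0.00941 by edgeR's quasi-likelihood test. On the other strand, *Gm37759* shares 1309 exonic bases with *Cacna1s*, and its counts reached at most 5.96% of those of *Cacna1s*.

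*Stac3* (ENSMUSG00000040287, chr10:127501686-127508823, plus strand) encodes the adaptor that brings CaV1.1 to the membrane and links it to RYR1. It was counted at 50.2, 46.2, and 48.9 CPM in the normal libraries and at 28.6, 29.6, and 28.9 CPM in the DM1 libraries. The DM1 libraries were close together, within about 1 CPM, and far below the normal ones. The mean fell from 48.4 ± 2.01 to 29.0 ± 0.518 CPM, and the log2 fold change was -0.74 ± 0.0801 (adjusted p = 0.00195, edgeR), the smallest p-value among the 10 genes.

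*Ryr1* (ENSMUSG00000030592, chr7:29003344-29125179, minus strand) encodes the calcium release channel of the store. The level was 512, 498, and 521 CPM in the normal group and 259.9, 292, and 366 CPM in the DM1 group. Normal libraries agreed closely, whereas the DM1 libraries spread more widely and all stayed below them. The mean was 510.5 ± 11.7 CPM in the normal and 306 ± 54.3 CPM in the DM1 group, which is 40.1% lower on the fitted scale (log2 fold change -0.74 ± 0.124, adjusted p = 0.00744, edgeR). By limma on log2(TPM + 1), the change was -0.72 and its adjusted p-value 0.0528.

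The SERCA pumps return calcium to the store. *Atp2a2* (ENSMUSG00000029467, chr5:122453513-122502225, minus strand), which encodes SERCA2 of slow muscle, heart, and most other cells, had the largest decrease of the 10 genes. Its levels were 298, 267, and 304 CPM in the normal libraries and 133, 127, and 176 CPM in the DM1 libraries. The groups were well apart, and the mean fell from 289.6 ± 19.6 to 145 ± 26.7 CPM. The log2 fold change was -0.997 ± 0.132, or 49.9% lower (adjusted p = 0.00319, edgeR).

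*Atp2a1* (ENSMUSG00000030730, chr7:126445858-126463108, minus strand) encodes SERCA1, the pump of fast muscle. Its level was 213, 185, and 224 CPM in the normal and 107, 125, and 157 CPM in the DM1 group. The groups did not overlap, although DM1 library 3 came near normal library 2. The mean fell from 207 ± 20.1 to 129.7 ± 25.3 CPM (log2 fold change -0.68 ± 0.143, adjusted p = 0.0163, edgeR). The call was lost without normal library 1 (-0.66, adjusted p = 0.0625), normal library 3 (-0.61, 0.0736), or DM1 library 2 (-0.65, 0.0687). *Rabep2* shares 763 exonic bases with *Atp2a1* on the other strand and had counts of between 15.4% and 18.7% of those of *Atp2a1* in the normal and between 24.3% and 30.5% in the DM1 libraries. Because the strand setting of the counting is not stated, reads of these bases cannot be assigned to either gene.

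Calsequestrin binds calcium inside the store. *Casq2* (ENSMUSG00000027861, chr3:102086415-102146514, plus strand), the form of heart and slow muscle, was the most abundant of the 10 genes by TPM. It was counted at 726, 665, and 665 CPM in the normal and 516, 475, and 447 CPM in the DM1 libraries. All DM1 libraries were lower than the normal ones, with means of 685 ± 35.1 and 479.6 ± 34.9 CPM. The log2 fold change was -0.52 ± 0.0893 (adjusted p = 0.00821, edgeR).

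*Casq1* (ENSMUSG00000007122, chr1:172209894-172219868, minus strand), the form of fast muscle, was the one gene of the 10 that was not called. The values were 40.5, 37.2, and 53.2 CPM in the normal group and 32.8, 38.3, and 40.5 CPM in the DM1 group. The groups overlapped, and normal library 3 stood above the other 5 libraries. The means were 43.6 ± 8.46 and 37.2 ± 3.96 CPM, with a log2 fold change of -0.23 ± 0.144 and an adjusted p-value of 0.326 (edgeR). Without normal library 3 the change was -0.05.

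*Trdn* (ENSMUSG00000019787, chr10:33080554-33476709, plus strand) encodes triadin, which anchors calsequestrin to RYR1. Its level was 39.8, 44.96, and 49.3 CPM in the normal and 25.3, 36.4, and 31.4 CPM in the DM1 libraries. The highest DM1 library lay just below the lowest normal library. The mean fell from 44.7 ± 4.72 to 31.0 ± 5.54 CPM (log2 fold change -0.53 ± 0.141, adjusted p = 0.0372, edgeR). The call held without DM1 library 2 (-0.66, adjusted p = 0.0413) and was lost without any other library, with adjusted p-values of 0.0623, 0.104, and 0.149 without normal libraries 1 to 3 and of 0.0652 and 0.0665 without DM1 libraries 1 and 3. It was also lost by limma on log2(TPM + 1), with a change of -0.70 and an adjusted p-value of 0.133.

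Junctophilin and amphiphysin shape the membranes of the triad. *Jph1* (ENSMUSG00000042686, chr1:16964560-17097889, minus strand) encodes the junctophilin that ties the T-tubule to the store in skeletal muscle. The level was 27.4, 28.2, and 30.4 CPM in the normal and 17.6, 24.6, and 20.98 CPM in the DM1 libraries. The groups were apart by a small gap, and the call stood at the threshold, with means of 28.7 ± 1.55 and 21.1 ± 3.49 CPM, a log2 fold change of -0.44 ± 0.130, and an adjusted p-value of 0.04995 (edgeR). It held without DM1 library 2 (-0.57, adjusted p = 0.0427) and was lost without each of the others, with adjusted p-values of 0.107, 0.119, and 0.177 without normal libraries 1 to 3 and of 0.0987 and 0.0713 without DM1 libraries 1 and 3. With DESeq2's size factors in place of TMM the adjusted p-value was 0.0529.

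*Bin1* (ENSMUSG00000024381, chr18:32377230-32435737, plus strand) encodes amphiphysin 2, a protein that bends membranes into T-tubules and that is also made in other tissues. It was counted at 435, 404, and 425.5 CPM in the normal and 289, 283, and 315 CPM in the DM1 group. Both groups were tight and lay far apart. The mean fell from 421 ± 16.1 to 296 ± 17.2 CPM (log2 fold change -0.51 ± 0.0834, adjusted p = 0.00666, edgeR).

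**Figure D2:**
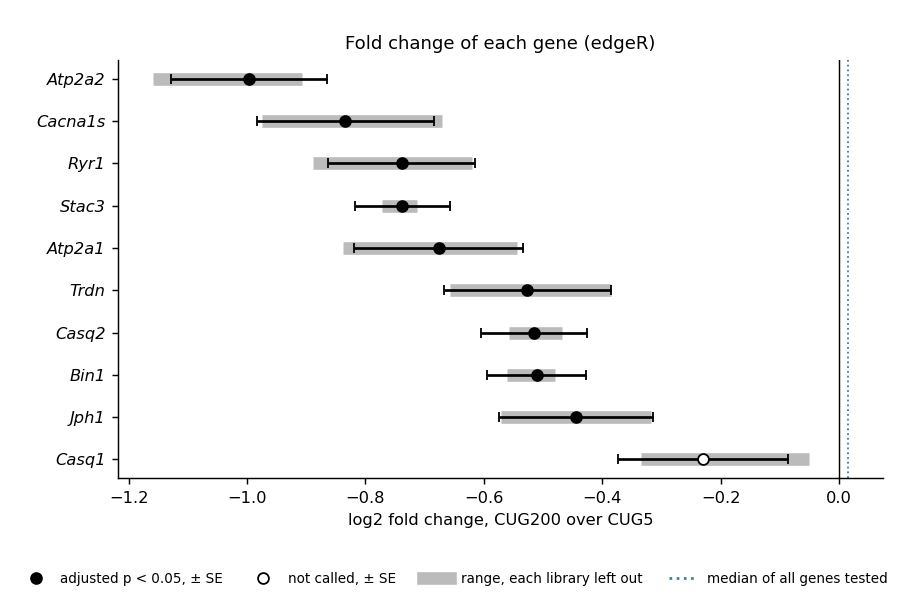
Log2 fold change of the DM1 over the normal group for each of the 10 genes by edgeR, as the estimate ± SE, with filled points for an adjusted p-value under 0.05. Gray bars span the estimates with each library left out, and the dotted line is the median of all 19005 genes, 0.02. The points run from -0.997 for *Atp2a2* to -0.23 for *Casq1*, and no gray bar reaches 0.

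Which library of a group was lowest or highest varied among the genes. In the normal group, library 2 had the lowest CPM in 8 of the 10 genes, library 3 had the highest in 7, and library 1 had the lowest in *Trdn* and *Jph1*. In the DM1 group, library 1 was the lowest in 7 genes, and library 3 was the highest in 6 (*Ryr1*, *Cacna1s*, *Atp2a1*, *Atp2a2*, *Casq1*, and *Bin1*). DM1 library 2 was the highest for *Stac3*, *Trdn*, and *Jph1* and the lowest for *Atp2a2* and *Bin1*, and for *Casq2* DM1 library 1 was the highest and DM1 library 3 the lowest.

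By TPM, the order of levels in the normal group was *Casq2* (454 ± 48.3 TPM), *Bin1* (383 ± 32.5), *Atp2a1* (129 ± 13.96), *Atp2a2* (112 ± 10.3), *Ryr1* (103 ± 10.2), *Stac3* (94.5 ± 8.61), *Trdn* (50.4 ± 8.11), *Casq1* (40.7 ± 6.99), *Cacna1s* (18.1 ± 1.41), and *Jph1* (11.1 ± 1.91). The ranges of the libraries overlapped between neighbours from *Atp2a1* through *Stac3*, and between *Trdn* and *Casq1*. In the DM1 group, *Casq2* (290.2 ± 11.8 TPM) and *Bin1* (247 ± 38.0) again led, and their ranges overlapped. *Atp2a1* (76.5 ± 22.8 TPM), *Ryr1* (63.6 ± 18.03), *Atp2a2* (51.5 ± 15.9), and *Stac3* (50.3 ± 4.73) followed, each overlapping with the next. *Casq1* (32.8 ± 6.82 TPM) and *Trdn* (31.9 ± 11.1) overlapped, as did *Cacna1s* (9.43 ± 2.82) and *Jph1* (6.78 ± 1.40). Thus, *Atp2a2* ranked 4 in the normal group and 5 in the DM1 group, although neighbours at these ranks were not apart in either group.

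TPM values also carry the length of the transcripts to which StringTie assigned the reads. For *Casq2* and *Bin1*, the mean transcript length differed by a ratio of at most 1.01 among the libraries. For *Ryr1* it ran from 7161 to 9169 bases, for *Trdn* from 1357 to 1870 bases, and for *Jph1* from 3706 to 4811 bases, with overlapping groups for each. For *Trdn*, the mean was 1783 bases in normal library 2 and 1870 bases in DM1 library 1, with 1357 to 1429 bases in the other 4 libraries.

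**Figure D3:**
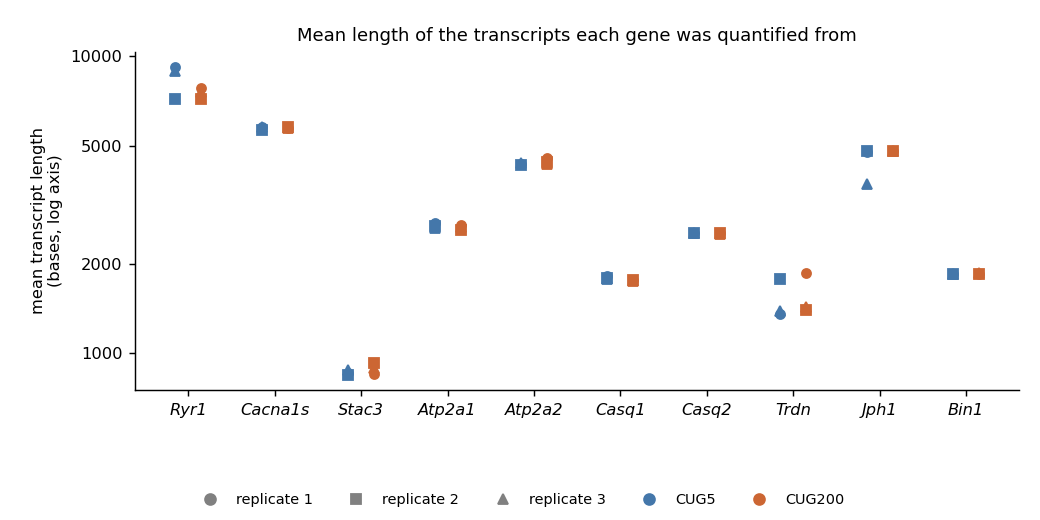
Mean length in bases (log axis) of the transcripts from which each gene was quantified, per library, derived from the deposited counts and TPM, with CUG5 in blue, CUG200 in orange and the replicate number as the symbol. The libraries lie on top of each other for *Casq2* and *Bin1* and spread for *Ryr1*, *Trdn*, and *Jph1*.

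Paralog pairs were compared by TPM within each library. *Atp2a1* made up 53.0%, 52.7%, and 54.9% of the summed TPM of *Atp2a1* and *Atp2a2* in the normal libraries and 57.6%, 62.5%, and 59.2% in the DM1 libraries. The share of the fast-muscle pump was higher in every DM1 library, 59.8% ± 2.53 against 53.5% ± 1.19, a difference of 6.24 percentage points. The exact two-sided permutation test gave p = 0.1, the smallest p-value that 3 against 3 libraries allow. Counts of *Rabep2*, which overlaps *Atp2a1*, overlapped between the groups (2766, 2124, and 2407 in the normal and 1939, 2709, and 2667 in the DM1 libraries) and were a larger percent of the lower *Atp2a1* counts in the DM1 group, and their part in this share was not tested. *Casq1* made up 7.26%, 7.36%, and 10.2% of the calsequestrin TPM in the normal and 8.36%, 10.4%, and 11.6% in the DM1 libraries. These groups overlapped (8.28% ± 1.68 and 10.1% ± 1.63, exact permutation p = 0.2). The ratio of *Cacna1s* to *Ryr1* TPM was 0.190, 0.144, and 0.200 in the normal and 0.142, 0.152, and 0.149 in the DM1 libraries and overlapped as well (exact permutation p = 0.3). The mean *Ryr1* transcript length was 9169, 7161, and 8893 bases in the normal and 7818, 7198, and 7599 bases in the DM1 libraries. Its part in this ratio was not tested.

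To place the coupling genes beside the myotube markers, the mean log2 CPM of the 16 markers was subtracted from that of each gene in each library. The marker mean itself was between 8.18 and 8.25 in the normal and between 7.46 and 7.69 in the DM1 libraries, a difference of -0.64. Relative to it, 6 genes overlapped between the groups, with differences of -0.11 for *Ryr1*, -0.21 for *Cacna1s*, -0.09 for *Stac3*, -0.05 for *Atp2a1*, 0.13 for *Casq2*, and 0.11 for *Trdn*. *Atp2a2* lay lower in every DM1 library, with a difference of -0.37, as did 1.2% of all genes tested. *Casq1* and *Bin1* lay higher relative to the markers in every DM1 library, with differences of 0.43 and 0.13. *Jph1* had a difference of 0.19 and also lay higher, although normal library 3 and DM1 library 1 were both at -3.32 after rounding. On this scale, 67.4% of all genes tested lay higher in every DM1 library, so the higher position of *Casq1*, *Bin1*, and *Jph1* is that of most genes. The 6 genes that overlapped and *Atp2a2* did not share it. These differences are given as a description, since the markers were chosen with the results known.

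**Figure D4:**
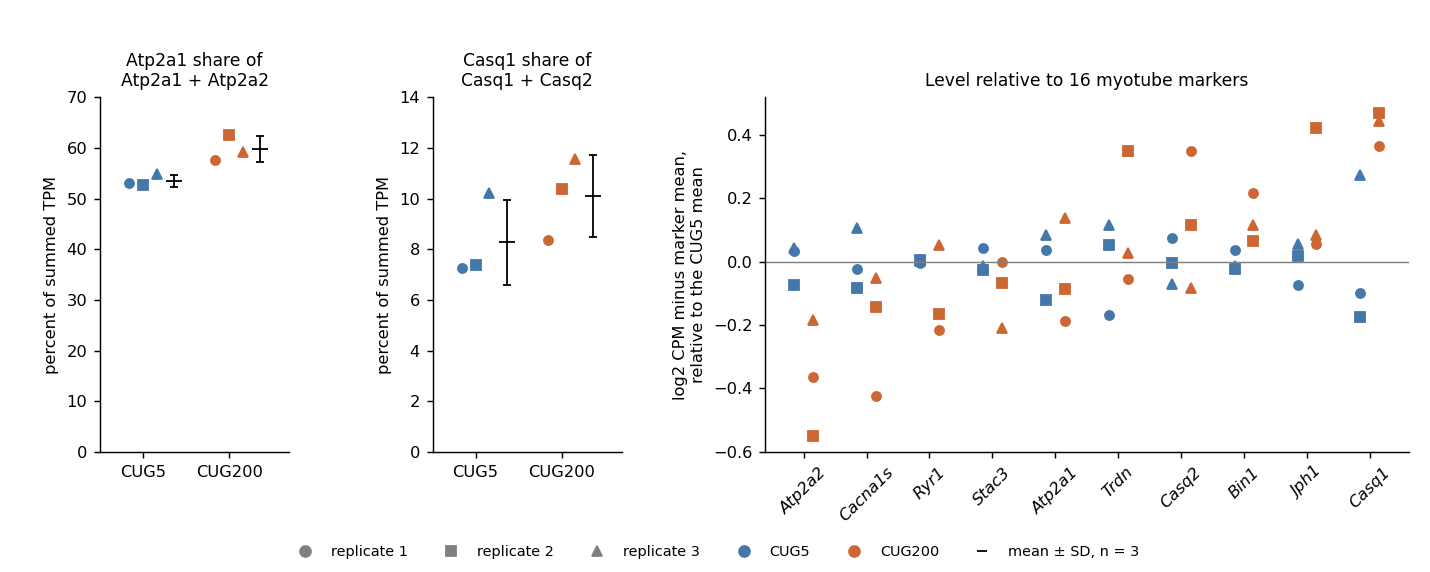
Left and middle panels show *Atp2a1* and *Casq1* as a percent of the summed TPM of their pair (axes from 0), with mean ± SD (n = 3), and the right panel shows log2 CPM minus the mean of 16 myotube markers, relative to the CUG5 mean. The *Atp2a1* share lies between 57.6% and 62.5% in the CUG200 libraries and between 52.7% and 54.9% in the CUG5 libraries, and *Atp2a2* and *Casq1* lie at opposite ends of the right panel.

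Other genes of the pathway were taken from 5 lists, also chosen with earlier results of these data known. The lists held 66 genes in all, of which 54 passed the filter, and *Homer2* and *Trpc4* were at 0 in every library. By the same edgeR test, 15 fell, 5 rose, and 34 were not called, and their log2 fold changes had a median of -0.17. The share that fell was 27.8%, against 8.73% of all genes tested, and the share that rose was 9.26%, close to the 7.13% of all genes. Without normal library 3, 7 of them fell and 485 of all 19835 genes tested, and without DM1 library 2, 10 of them fell and 568 of all 19584. By limma on log2(TPM + 1), 11 fell and 1 rose, against 816 and 427 of all 19005 genes tested.

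Proteins of the triad and the store held the most decreases. Of 15 genes, 13 were tested and 6 fell (46.2%, against 8.73% of all genes), and none was called higher or was higher at an unadjusted p-value under 0.05 by edgeR. *Srl*, encoding the store protein sarcalumenin, was at 391, 343, and 377.5 CPM in the normal and 176, 191, and 208 CPM in the DM1 libraries (log2 fold change -0.95 ± 0.0961, adjusted p = 0.00159). *Hrc*, the histidine-rich calcium-binding protein of the store, was at 193, 172, and 198 CPM against 95.6, 99.5, and 115 CPM (-0.86 ± 0.1002, adjusted p = 0.0022). *Dhrs7c*, a dehydrogenase/reductase of the sarcoplasmic reticulum, fell from 9.33 ± 1.11 to 3.72 ± 0.586 CPM (log2 fold change -1.32). *Tmem38a*, the counter-ion channel TRIC-A, and *Jsrp1*, a junctional protein that binds CaV1.1 and calsequestrin, had log2 fold changes of -0.57 and -0.43. In each of these named genes, all DM1 libraries lay below all normal libraries.

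Of 21 partners of the voltage sensor and release channel, 16 were tested, 2 fell (12.5%, against 8.73% of all genes), and 3 rose (18.8%, against 7.13%). *Cacna2d1*, the auxiliary subunit that accompanies CaV1.1, was at 204, 133, and 237 CPM in the normal and 88.7, 95.5, and 89.0 CPM in the DM1 libraries (log2 fold change -1.07 ± 0.192, adjusted p = 0.0113, edgeR). Normal libraries spread widely for it, and all stood above the DM1 libraries. *Cacng1*, the gamma subunit of the same channel, fell from 194 ± 10.1 to 138 ± 10.1 CPM (log2 fold change -0.49). Of the genes that rose, *Fkbp1b*, whose product binds ryanodine receptors, was at 3.05, 3.26, and 2.66 CPM in the normal and 5.38, 5.28, and 5.70 CPM in the DM1 libraries (log2 fold change 0.87 ± 0.151, adjusted p = 0.00828, edgeR). *Cacnb2*, a channel subunit best known from the heart, and *Calm2*, one of the genes for calmodulin, had log2 fold changes of 0.72 and 0.71.

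Of 12 calcium pumps, exchangers, and their regulators, 9 were tested, 2 fell, and 2 rose (22.2% each, against 8.73% and 7.13% of all genes). *Atp2a3*, the SERCA3 gene of non-muscle cells, fell from a low level of 2.55 ± 0.369 to 0.878 ± 0.272 CPM (log2 fold change -1.54). *Atp2b1*, a calcium pump of the plasma membrane, fell from 296 ± 8.35 to 221 ± 4.63 CPM (log2 fold change -0.43). *Atp2b4*, another plasma membrane pump, was higher in every DM1 library, with 153, 148, and 142 CPM in the normal and 221, 262, and 291 CPM in the DM1 libraries (log2 fold change 0.80 ± 0.109, adjusted p = 0.00332, edgeR). The sodium-calcium exchanger *Slc8a1* rose from 9.12 ± 1.64 to 15.8 ± 2.57 CPM (log2 fold change 0.79).

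Store-operated entry refills the store through ORAI channels, which STIM proteins open when the store is empty. Of 8 genes, 6 were tested and 2 fell (33.3%, against 8.73% of all genes), *Orai1* from 21.8 ± 1.15 to 14.3 ± 1.73 CPM (log2 fold change -0.61, adjusted p = 0.0125, edgeR) and *Stim2* from 59.7 ± 3.80 to 45.1 ± 0.567 CPM (log2 fold change -0.41, adjusted p = 0.0129). Of 10 genes that shape or repair the T-tubule and surface membrane, all 10 were tested and 3 fell, also against 8.73% of all genes. These were *Xirp1*, encoding the actin-binding protein Xin (log2 fold change -0.62), *Trim72*, encoding the membrane repair protein MG53 (-0.50), and *Ehd1*, encoding an ATPase that remodels membranes (-0.45). None of the store-operated entry genes was called higher or was higher at an unadjusted p-value under 0.05 by edgeR, and of the T-tubule genes none was called higher and 1 was higher at an unadjusted p-value under 0.05.

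**Figure D5:**
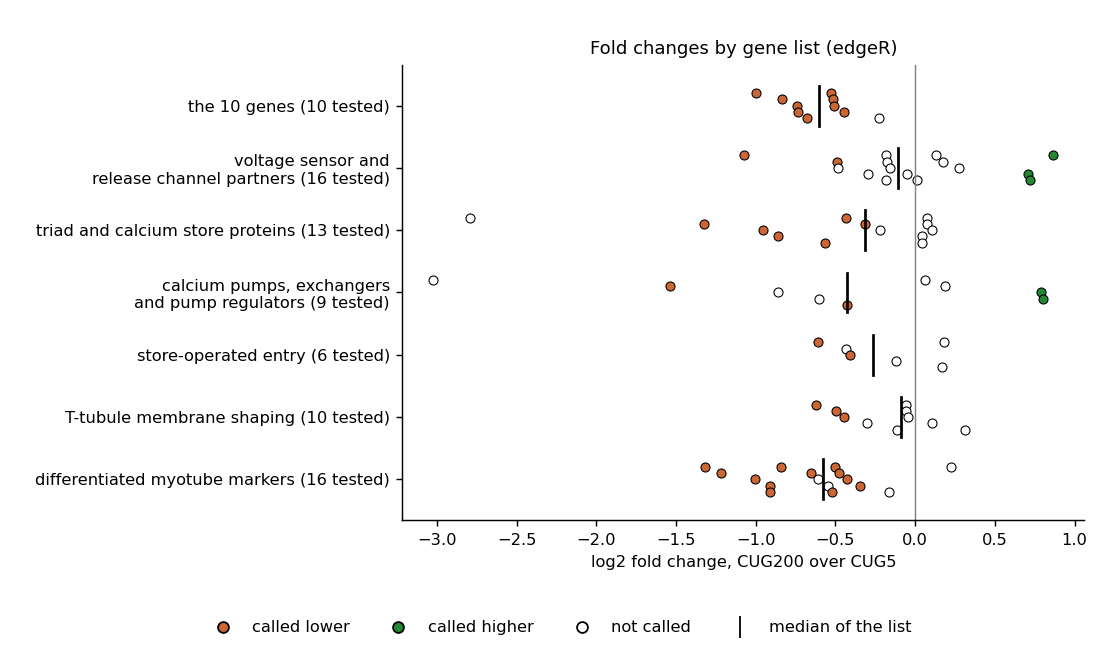
Log2 fold changes of the tested genes among the 10, in the 5 pathway lists and in the myotube marker list by edgeR, CUG200 over CUG5, with orange for genes called lower, green for genes called higher, white for genes not called and a bar at the median of the list. The 10 genes have a median of -0.60 and the 16 myotube markers of -0.58, while the medians of the 5 pathway lists lie between -0.43 and -0.09.

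The genes whose profile over the 6 libraries was most like that of *Ryr1* or *Cacna1s* were found among 9660 genes with a mean of at least 10 CPM, by the root mean square distance of centred log2 CPM. For *Ryr1*, these were *Myom3*, an M-band protein of the sarcomere (0.03), *Slco3a1* (0.04), and *Usp10* (0.05). For *Cacna1s*, they were *Klhl31* (0.07), *Mmp15* (0.08), and again *Myom3* (0.10).

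Gene-level values do not resolve exons. An exon of *Cacna1s* that is known to be skipped in DM1 muscle is exon 29 of the transcript Cacna1s-201 (chr1:136104570-136104626, plus strand, GENCODE M21 on GRCm38). It is shown to mark the stretch that the summed level of *Cacna1s* does not report on. It is coding throughout, has 57 bases, and is left out in Cacna1s-202 and Cacna1s-206.
Cacna1s exon 29: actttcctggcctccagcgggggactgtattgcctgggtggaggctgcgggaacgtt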

How the data were processed

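Per the labels and the study's methods, reads were trimmed with Trim Galore, aligned to GRCm38 with HISAT2, and quantified with StringTie, with versions and strand setting not given in the sources used here. The authors deposited counts per gene without normalization, and for each library a table of coverage, FPKM, and TPM by StringTie. Coverage multiplied by length was 74.94 to 74.95 bases per count (median), and the read length is not stated. Genes were filtered with filterByExpr (minimum count 10), scaled by TMM (factors 0.940 to 1.05), and compared with edgeR 4.0.16 (quasi-likelihood, robust, no covariate) with Benjamini-Hochberg adjustment over all 19005 genes tested. Alternatives used DESeq2 1.42.0, limma 3.58.1, other filters and scalings, a replicate block, and each library left out, and R was 4.3.3. Fold changes from TPM are on the log2(TPM + 1) scale unless log2(TPM + 0.1) is named, and the added 1 damps changes of low genes. Even so, decreases on log2(TPM + 1) were larger than edgeR's for each of the 10 genes except *Ryr1*. For *Jph1* the change was -0.64 against -0.44, and for *Ryr1* -0.72 against -0.74. Paralog shares used the deposited TPM, and counts as an alternative, while FPKM gives the same shares as TPM by construction. Each of the 10 genes was matched by ID and had the same span in GENCODE M21. Sequences are from RefSeq (GRCm38.p6) and GENCODE M21. The tests were checked on simulated data. The 10 genes and all lists were chosen with earlier results of these data known. Genes named beyond the 10 were up to 5 per list and direction with the smallest p-values among those called, and the 3 genes most like *Ryr1* or *Cacna1s*. Some genes were named in addition, after their values were seen. These were list genes at 0 in every library, the myotube markers not called, and genes overlapping the 10 on the other strand.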

Additional observations from a re-analysis of the deposited data

How the results depend on the processing

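All 10 genes were lower in the DM1 group under each of 17 alternatives. *Cacna1s*, *Stac3*, *Atp2a2*, *Casq2*, and *Bin1* were called under all 17, *Ryr1* under 16, *Atp2a1* under 14, *Trdn* under 10, *Jph1* under 7, and *Casq1* under none. By limma on log2(TPM + 1), calls were lost for *Ryr1* (-0.72), *Trdn* (-0.70), and *Jph1* (-0.64), and on log2(TPM + 0.1) for *Trdn* (-0.71) and *Jph1* (-0.70). The call of *Jph1* was also lost with DESeq2 size factors (-0.44), library sizes alone (-0.46), and edgeR without robust estimation (-0.44). The causes were not tested. With each library left out in turn, the change ran from -0.84 to -0.54 for *Atp2a1*, from -0.66 to -0.39 for *Trdn*, from -0.57 to -0.32 for *Jph1*, and from -0.34 to -0.05 (without normal library 3) for the uncalled *Casq1*, and between 6 and 8 of the 10 genes were called lower. *Atp2a2* alone passed the cutoffs, so that the count was 1 and not 0, with library sizes alone, without a filter beyond 1 count, with the replicate block, and by limma with either pseudocount, and the count was 0 to 1 with a library left out. Of the pathway genes, 7 to 15 fell and 3 to 7 rose with a library left out. Of all genes tested, between 485 of 19835 and 2111 of 19694 then fell, and between 543 of 19835 and 1678 of 19694 rose. By limma, 1 pathway gene rose with either pseudocount, against 427 (pseudocount 1) and 434 (0.1) of all 19005 genes.

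Over all genes, 1660 fell and 1356 rose. With a library left out between 485 (without normal library 3) and 2111 (without DM1 library 3) fell and between 543 and 1678 rose. By limma, 816 and 427 were called with a pseudocount of 1, and 850 and 434 with 0.1. The median log2 fold change of all genes was 0.02 by edgeR and -0.06 and -0.09 by limma with these pseudocounts. No pairing of the libraries by replicate number was seen over all genes. Deviations of libraries with the same number correlated at 0.07, 0.02, and 0.03, and those with different numbers at -0.07 to 0.05. This measure cannot exclude a pairing. With the number as a replicate block, 1497 genes fell and 1326 rose, and 9 of the 10 genes fell, as without it. Counts divided by 4 and rounded up, an alternative chosen after seeing the data, also gave 9 of 10. With them, 1761 of all 15484 genes tested fell. The lowest count of any of the 10 genes in a library was 1309.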

Other observations

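The mean length of the *Casq1* transcripts was 1816, 1788, and 1785 bases in the normal libraries and 1771, 1771, and 1751 bases in the DM1 libraries. The ratio between the highest and the lowest library was 1.04, and the difference was not tested.

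In GENCODE M21, 9 internal exons of these genes are held by some protein-coding transcripts and skipped singly by others that join the same neighbouring exons. Exons skipped in runs and alternative splice sites were not counted. Exon 22 of Atp2a1-201 (chr7:126446545-126446586, minus strand) has 42 bases and is left out in Atp2a1-202, and exon 4 of Ryr1-208 (chr7:29117208-29117228, minus strand) has 21 bases and is left out in Ryr1-201 and Ryr1-202. Their inclusion was not analysed here.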
